A study of Mus musculus with 40 samples.

Results

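The transcripts described here came from 10 genes of glutathione metabolism, out of 47643 Ensembl genes counted in 40 RNA-seq libraries of mouse brain. The genes were chosen by name. They comprised the enzymes that make glutathione (*Gclc*, *Gclm* and *Gss*), the carrier that brings in cystine for it (*Slc7a11*), the reductase that recycles it (*Gsr*), genes of its breakdown cycle (*Ggt7* and *Oplah*) and 3 peroxidases that spend it (*Gpx1*, *Gpx3* and *Gpx4*). All 10 symbols matched 1 row each in both regions. Libraries were made from the hippocampus and the frontal cortex of wild-type Swiss Webster mice, an outbred stock, which the methods describe as germ-free females aged 6 to 8 weeks. Each cohort received stool of 1 of 10 children with refractory epilepsy, given before (pre-KD) or during (post-KD) a ketogenic diet, a high-fat and very low-carbohydrate therapy. The mice of both groups ate the same control chow and never the diet itself, and brains were taken on day 4 after colonization. Each library pooled 6 mice of a cohort, so that 10 libraries stood for each region and condition and differences between single mice were averaged out.

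Glutathione is a small thiol peptide built from glutamate, cysteine and glycine. Glutamate-cysteine ligase, whose catalytic and modifier subunits are encoded by *Gclc* and *Gclm*, makes the rate-limiting bond, and glutathione synthetase (*Gss*) adds the glycine. In the brain, astrocytes export much of the glutathione from which neurons rebuild their own. Glutathione peroxidases use it to reduce hydrogen peroxide and lipid peroxides, and glutathione reductase (*Gsr*) restores the oxidized form with NADPH. The transcription factor NRF2 drives many of these genes through the antioxidant response element, a short DNA motif.

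Promoters are shown for *Gpx1* and *Gpx3*, the members with the region and diet values described below, and for *Gclm*, whose promoter held an antioxidant response element. Each run of 300 bases covers 250 bases before to 50 bases after the transcription start on the gene's own strand, from RefSeq on GRCm38.p6. Capitals mark the antioxidant response element, searched as TGACNNNGC, and the GC box, searched as GGGCGG, both on either strand. *Gpx1* lies at chr9:108338830-108339129 (plus strand) with 1 GC box, *Gpx3* at chr11:54902604-54902903 (plus strand) with 1 GC box, and *Gclm* at chr3:122245307-122245606 (plus strand) with 1 antioxidant response element and 4 GC boxes.
Gpx1 promoter: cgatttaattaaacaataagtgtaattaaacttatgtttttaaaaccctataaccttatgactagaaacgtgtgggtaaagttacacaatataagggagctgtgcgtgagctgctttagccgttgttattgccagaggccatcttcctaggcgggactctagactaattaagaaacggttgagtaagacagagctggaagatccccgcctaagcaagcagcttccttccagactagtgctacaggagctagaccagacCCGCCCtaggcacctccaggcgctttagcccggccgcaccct
Gpx3 promoter: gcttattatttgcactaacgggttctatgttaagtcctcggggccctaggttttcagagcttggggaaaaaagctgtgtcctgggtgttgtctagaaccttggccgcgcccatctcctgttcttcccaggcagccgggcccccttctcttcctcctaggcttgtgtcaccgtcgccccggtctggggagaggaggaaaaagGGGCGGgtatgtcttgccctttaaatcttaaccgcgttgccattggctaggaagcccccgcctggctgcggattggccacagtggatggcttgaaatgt
Gclm promoter: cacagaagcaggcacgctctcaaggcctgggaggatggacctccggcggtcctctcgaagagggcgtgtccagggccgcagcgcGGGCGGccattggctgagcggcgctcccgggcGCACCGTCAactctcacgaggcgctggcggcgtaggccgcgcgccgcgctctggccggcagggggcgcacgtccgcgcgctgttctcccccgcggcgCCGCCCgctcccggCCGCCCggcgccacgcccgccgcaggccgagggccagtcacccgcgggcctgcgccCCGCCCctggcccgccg
Of the 10 members, 7 had a promoter entry, and *Gclc*, *Gsr* and *Oplah* had none. *Gclm* was the only 1 of these 7 with the antioxidant response element in this window, which 12.4% of all 32851 promoters of the same length held. The GC box, present in 35.7% of them, was found for *Gclm*, *Gss*, *Ggt7*, *Gpx1*, *Gpx3* and for 3 of 4 entries of *Gpx4*, and not for *Slc7a11*. A match describes letters only.

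Between 1140756 and 1947416 reads were counted per hippocampal library and between 1188447 and 2095352 per frontal cortical library. All 7 hippocampal markers were higher in the hippocampus, and 3 of them passed the adjusted threshold. Of 7 frontal cortical markers, 2 (*Rorb* and *Lamp5*) were significantly higher in the frontal cortex, while *Fezf2*, a deep-layer cortical gene, was significantly higher in the hippocampus. All 6 striatal markers tested were significantly higher in frontal cortical libraries, with *Penk* at 210 CPM against 25.6 CPM in the hippocampus. Transcripts of the choroid plexus, the tissue that secretes cerebrospinal fluid, marked the hippocampal libraries, with *Ttr* at 1589 CPM against 140 CPM in the frontal cortex. Although the mice were described as female, all 8 libraries of donors 9 and 10 held 78.9 to 179 CPM of 4 Y-linked transcripts summed, compared to 0 to 15.8 CPM in the other 32 libraries. The *Gpx3* and *Gpx1* results in the frontal cortex, and that of *Gpx1* between regions, are therefore also given without these donors. This choice was made after seeing the data. Pathway genes outside the 10 members are not given without donors 9 and 10. In tissue RNA, fewer cells of a type and less RNA per cell cannot be told apart. All p values below measure the spread between pooled libraries.

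Transcript levels are given as CPM, a gene's reads scaled to the total counted in its library after TMM normalization, which corrects for the makeup of each library. *Gpx1*, the most abundant peroxidase of most cell interiors, had the highest level of the members. Per kilobase of exon its level was 53.8 ± 17.4 CPM (SD, n = 20) in the frontal cortex and 34.8 ± 17.8 CPM (SD, n = 20) in the hippocampus. It exceeded the next member of the order in 20 of 20 frontal cortical libraries (*Gpx3*) and 18 of 20 hippocampal libraries (*Gpx4*). Its mean per kilobase over all libraries was above that of 96.1% of 19344 genes. In the frontal cortex, *Gpx3* (8.04 CPM per kilobase), *Gclc* (7.74), *Gclm* (7.11), *Gpx4* (5.99) and *Gsr* (4.79) came next. Each of these neighbors was separated from the following member by less than the larger of their SDs, and *Oplah*, *Ggt7*, *Slc7a11* and *Gss* closed the order at 1.99, 1.96, 1.28 and 0.584 CPM per kilobase. The hippocampal order after *Gpx1* was *Gpx4* (7.83), *Gclc* (7.42), *Gclm* (5.80), *Gpx3* (5.24), *Gsr* (3.04), *Slc7a11* (2.16), *Ggt7* (2.003), *Oplah* (1.61) and *Gss* (0.976), again with no neighbors farther apart than the larger SD. The methods name a kit that covers whole transcripts while the resource list names a 3′ end kit, for which dividing by length would lower long transcripts such as *Slc7a11* too far and raise short ones. *Gpx1* has the shortest exon sequence of the 10, and undivided its lead was smaller, with 50.2 ± 25.7 CPM against 36.5 ± 21.4 CPM of *Gclm* in the hippocampus (SD, n = 20 each), less than 1 SD apart.

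Most members were represented by few reads. Of 400 values (10 genes in 40 libraries), 101 rested on fewer than 10 reads and 25 were 0, and a count of 0 allows a level of up to 1.496 to 2.83 CPM depending on the library, for counting error only. *Gss*, the synthetase, averaged 7.48 reads per library and was at 0 in 11 of 40 libraries. *Gpx1* averaged 105 reads, *Gclm* 65.2, *Gclc* 46.0 and *Slc7a11* 37.7, and none of these 4 was ever at 0. The spread between libraries exceeded what counting alone gives: the coefficient of variation of *Gpx1* over 40 libraries was 44.9% where its mean count allows 9.76%, and that of *Gss* was 117% where 36.6% is allowed.

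**Figure D1:**
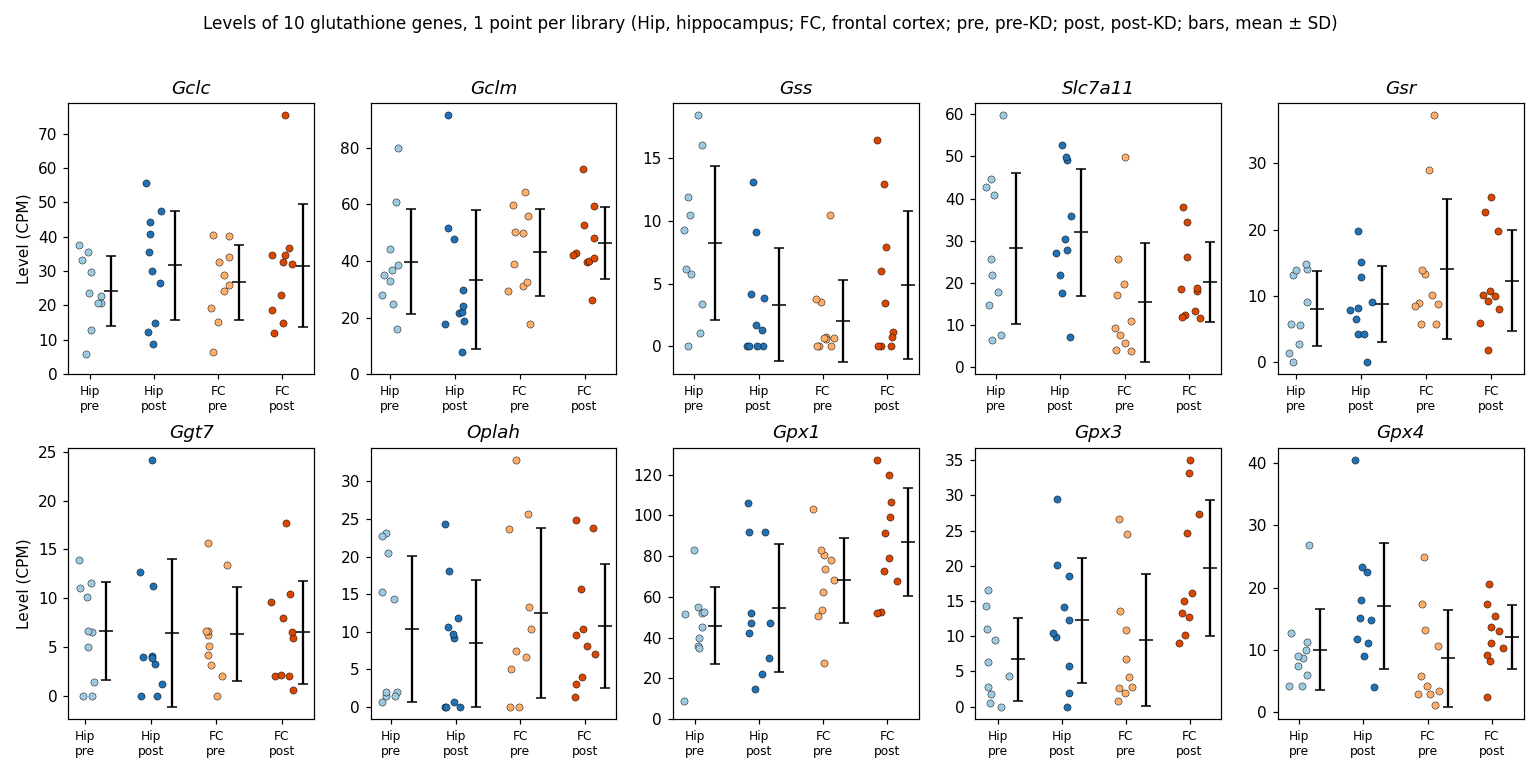
Level in CPM (vertical axis, 1 scale per gene) of each of the 10 glutathione genes in the 10 libraries of each region and condition, 1 point per library, with the mean and SD as bars beside the points. The groups of every gene overlap, *Gpx1* is higher in frontal cortical than in hippocampal libraries, and *Gpx3* in the post-KD frontal cortex has no library below 9.06 CPM.

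Exons of some members are shared with other genes, and the strand setting of the counting is not given in the sources used here. On GRCm38, *Gss* (ENSMUSG00000027610, chr2:155563181-155592810, minus strand) shares 395 exon bases and *Ggt7* (ENSMUSG00000027603, chr2:155490379-155518237, minus strand) 197 exon bases with *Acss2* on the opposite strand. *Oplah* (ENSMUSG00000022562, chr15:76296601-76328015, minus strand) shares 385 exon bases with *Exosc4* and 296 with *Smpd5*. *Gclm* (ENSMUSG00000028124, chr3:122245557-122270732, plus strand) shares 296 exon bases with the opposite-strand transcript *Gm17494*, and a stretch of 287 bases is 97.9% identical to *Ppia*. *Gpx4* (ENSMUSG00000075706, chr10:80047166-80056439, plus strand) has a copy, *Gpx4-ps2*, that is 99.7% identical over 762 bases. The levels of these 5 genes are uncertain to that extent. Of the remaining members, *Gpx1* (ENSMUSG00000063856, chr9:108338903-108340343, plus strand), *Gpx3* (ENSMUSG00000018339, chr11:54902453-54910377, plus strand), *Gclc* (ENSMUSG00000032350, chr9:77754535-77794485, plus strand) and *Gsr* (ENSMUSG00000031584, chr8:33652523-33698163, plus strand) share no exon bases with another annotated gene. *Slc7a11* (ENSMUSG00000027737, chr3:49892526-50443614, minus strand) shares none either, but a stretch of 373 bases is 96.2% identical to *Tuba1b*.

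To ask whether microbes from donors on the ketogenic diet altered these transcripts in the hippocampus, post-KD libraries were compared to pre-KD controls. None of the 10 members passed: in edgeR's quasi-likelihood test 0 reached an unadjusted p under 0.05, where 10.1% of 17529 genes tested did. After Benjamini-Hochberg adjustment over all genes, 0 members and 1 gene in all (0.0057%) passed. Of the 10, 6 had a higher fitted mean post-KD and 4 a lower one, and their median log2 fold change was 0.15 against -0.01 over all genes tested. *Gss*, the member with the fewest reads, had 0 to 18.4 CPM (median 7.68) in pre-KD libraries and 0 to 13.1 CPM (median 1.49) in post-KD libraries, was lower post-KD in 7 of 10 donors, and gave a log2 fold change of -1.30 with an interval from -3.49 to 0.90 (SE = 1.11, p = 0.244, adjusted p = 0.969, edgeR). In DESeq2 with a term for the donor its p was 0.0441, with an adjusted p of 0.916.

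Among the peroxidases in the hippocampus, *Gpx4*, which protects membranes by reducing lipid peroxides, ranged from 4.11 to 26.9 CPM (median 8.78) pre-KD and from 3.93 to 40.6 CPM (median 14.9) post-KD. It was higher post-KD in 8 of 10 donors, with groups that overlapped and a log2 fold change of 0.76 (SE = 0.71, p = 0.285, adjusted p = 0.993, edgeR). *Gpx3*, a secreted peroxidase known from plasma, ranged from 0 to 16.5 CPM (median 5.35) pre-KD and from 0 to 29.5 CPM (median 11.4) post-KD, with a log2 fold change of 0.85 (SE = 0.88, p = 0.336, adjusted p = 0.9998, edgeR). Donor 7 had 0 reads of it in both hippocampal libraries. *Gpx1* had medians of 48.3 and 47.1 CPM, and its log2 fold change of 0.23 had an interval from -0.43 to 0.89 (edgeR). The intervals of all these genes span increases as well as decreases, so that equal levels were not shown.

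Synthesis and recycling genes in the hippocampus did not pass either. *Gclc* stood at 24.2 ± 10.1 CPM pre-KD against 31.6 ± 15.97 CPM post-KD (SD, n = 10 each) but was lower post-KD in 6 of 10 donors, with a fitted log2 fold change of 0.37 (SE = 0.45, adjusted p = 0.9998, edgeR). Its partner *Gclm* averaged 39.7 ± 18.5 and 33.3 ± 24.5 CPM and was lower post-KD in 8 of the 10 donors, giving a log2 fold change of -0.27 (SE = 0.39, adjusted p = 0.9998, edgeR). The cystine carrier *Slc7a11*, the reductase *Gsr*, *Ggt7*, a gamma-glutamyltransferase family member, and *Oplah*, which returns 5-oxoproline to glutamate, had log2 fold changes of 0.17, 0.12, -0.06 and -0.30. Their adjusted p values were at least 0.969 in edgeR.

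In the frontal cortex, *Gpx3* was the 1 member of 10 to reach an unadjusted p under 0.05, where 9.68% of 17873 genes tested did. Its level ranged from 0.781 to 26.6 CPM (median 5.51) in pre-KD libraries and from 9.06 to 35.1 CPM (median 15.6) in post-KD libraries. The groups overlapped because donors 3, 4, 6 and 8 had pre-KD levels above the lowest post-KD library, and the level was higher post-KD in 8 of 10 donors, all but donors 4 and 8. The log2 fold change was 1.05 with an interval from 0.02 to 2.08 (SE = 0.52, p = 0.0459, edgeR). Its adjusted p was 0.4933 in edgeR, and 0 members and 1 gene in all (0.0056%) passed adjustment. With a block for the donor the log2 fold change was 1.47 (p = 0.0170, adjusted p = 1, edgeR). In DESeq2 the unadjusted p was 0.0252, or 0.00200 with that block, and in limma-voom it was 0.0199, with adjusted p values of 0.940, 0.285 and 0.786. In edgeR the unadjusted p rose above 0.05 in 6 of 10 leave-one-donor-out fits, to 0.0644 without donor 1, 0.111 without donor 2, 0.0600 without donor 5, 0.109 without donor 7, 0.129 without donor 9 and 0.0557 without donor 10. Without both donors 9 and 10 the log2 fold change was 0.78 (p = 0.158, adjusted p = 0.828, edgeR).

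Markers of other tissue were read beside the *Gpx3* values. Of 4 red blood cell markers tested, *Hba-a1* (457 against 326 CPM, p = 0.00163, adjusted p = 0.122, edgeR) and *Hbb-bs* (434 against 327 CPM, p = 0.00691, adjusted p = 0.136, edgeR) had higher levels in post-KD frontal cortex, while the other 2 had lower fitted values. *Hba-a2* was at 0 in every library. The summed level of the 5 genes was 390 to 1156 CPM pre-KD and 548 to 1390 CPM post-KD, and its part in the *Gpx3* result was not tested. Of 6 striatal markers tested, 2 were higher post-KD at an unadjusted p under 0.05, and of 10 microglial markers 1 was higher and 1 lower. The striatal *Penk* was at 231 CPM post-KD against 189 CPM pre-KD (p = 0.0349, adjusted p = 0.430, edgeR) and the microglial *C1qb* at 11.1 against 21.9 CPM (p = 0.0299, adjusted p = 0.392, edgeR), and 0 genes of either list passed adjustment. The neuronal, astrocytic, oligodendrocytic and endothelial lists had 0 of 10 markers each at that level, as did 9 choroid plexus and 10 meningeal and fibroblast markers. The summed choroid plexus level ran from 1.05 to 614 CPM pre-KD and from 11.97 to 447 CPM post-KD, with *Kcne2* at 0 in all post-KD libraries, and the summed meningeal level from 84.2 to 227 CPM and from 105 to 222 CPM.

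**Figure D2:**
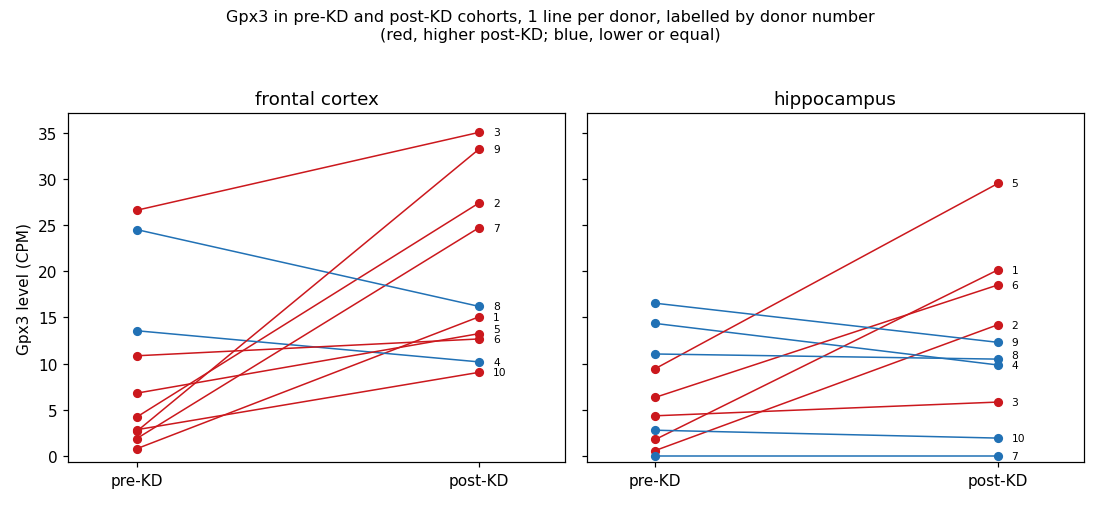
*Gpx3* level in CPM (vertical axis) in the pre-KD and post-KD library of each donor, for the frontal cortex (left) and the hippocampus (right), with 1 line per donor and the donor number at its right end. In the frontal cortex 8 of 10 lines rise, while in the hippocampus 5 rise, 4 fall and donor 7 is at 0 in both libraries.

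The other peroxidases in the frontal cortex had higher means post-KD but did not pass. *Gpx1* ranged from 27.4 to 103 CPM (median 71.2) pre-KD and from 52.3 to 127 CPM (median 85.3) post-KD. It was higher post-KD in 7 of 10 donors and gave a log2 fold change of 0.35 (SE = 0.20, p = 0.0890, adjusted p = 0.676, edgeR), and its p was 0.0409 without donor 9 and 0.0434 without donors 9 and 10 (adjusted p = 0.492 and 0.504, edgeR). *Gpx4* had medians of 4.94 CPM pre-KD and 11.97 CPM post-KD, was higher in 7 of 10 donors and gave a log2 fold change of 0.49 (SE = 0.60, p = 0.413, edgeR). Donor 9 had 17.3 CPM of *Gpx4* pre-KD and 2.38 CPM post-KD, but 2.66 and 33.3 CPM of *Gpx3*.

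The remaining 7 members in the frontal cortex had unadjusted p values of at least 0.249 in edgeR. *Gclc* (log2 fold change 0.24), *Gclm* (0.11), *Slc7a11* (0.40), *Ggt7* (0.04) and *Gss* (1.22) had higher fitted means post-KD, and *Gsr* (-0.20) and *Oplah* (-0.23) lower ones. *Slc7a11* ranged from 3.77 to 49.96 CPM (median 10.1) pre-KD and from 11.6 to 38.0 CPM (median 18.3) post-KD, was higher post-KD in 8 of 10 donors, and reached an unadjusted p of 0.0431 in limma-voom with quality weights (adjusted p = 0.813) against 0.379 in edgeR. *Gss* moved by the opposite sign in the hippocampus, with an interval from -0.87 to 3.32 here (SE = 1.05, p = 0.249, edgeR) and values from 0.83 to 2.25 with 1 donor left out, the highest without donor 5. Over the 10 members the median log2 fold change was 0.29, against 0.01 over all genes tested.

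**Figure D3:**
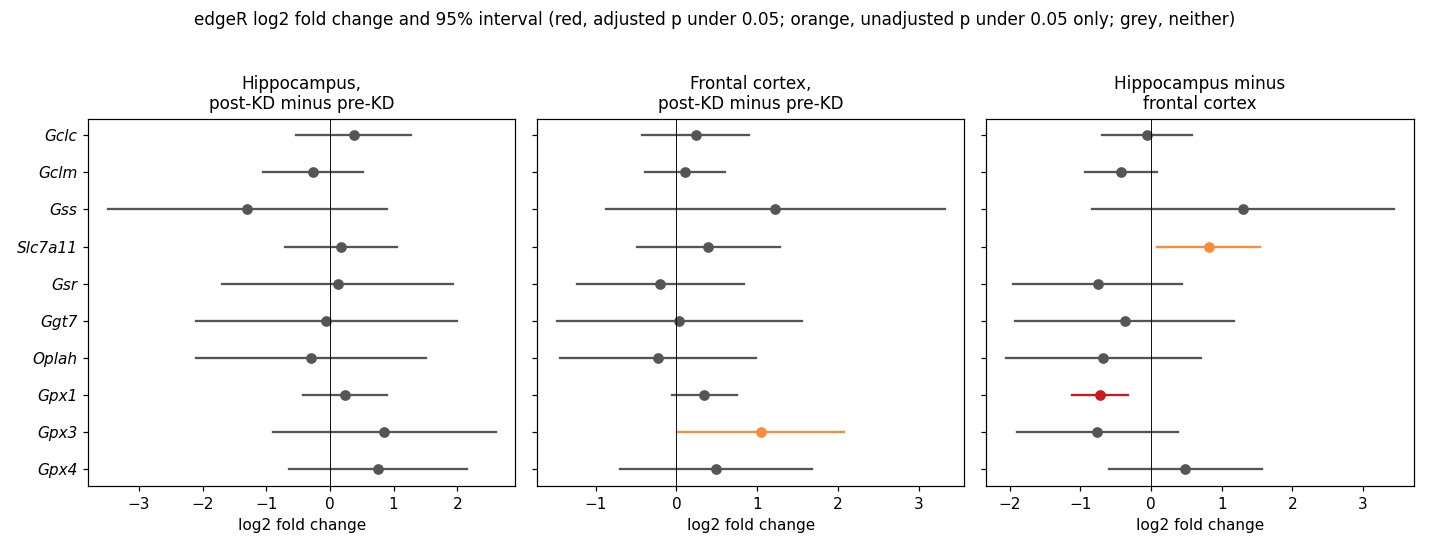
Log2 fold change (horizontal axis) with its 95% interval for each of the 10 genes in edgeR, for post-KD minus pre-KD in the hippocampus (left) and the frontal cortex (middle) and for hippocampus minus frontal cortex (right). Most intervals cross 0, *Gpx3* in the frontal cortex and *Slc7a11* between regions pass the unadjusted threshold only (orange), and *Gpx1* between regions passes the adjusted one (red).

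Both regions were dissected from the same cohorts, so the regions were compared within 20 cohorts. *Gpx1* was lower in the hippocampus than in the frontal cortex in 17 of 20 cohorts. Frontal cortical libraries ranged from 27.4 to 127 CPM (median 75.9) and hippocampal libraries from 8.73 to 106 CPM (median 47.1), so that the regions overlapped although their medians differed. The exceptions were the pre-KD cohorts of donors 1 and 2 and the post-KD cohort of donor 2. The log2 fold change was -0.72 with an interval from -1.12 to -0.32 (SE = 0.20, adjusted p = 0.0191, edgeR with a term for each cohort). It was the 1 member of 10 to pass, where 2.85% of 19422 genes tested did. The median log2 fold change of the 10 members was -0.40, against -0.17 over all genes tested. Of the 10, 7 had a lower fitted value in the hippocampus, as did 12170 of all 19422 genes tested.

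The *Gpx1* value kept its sign in every alternative tried, but its adjusted p rose to 0.203 without donor 5, 0.0755 without donor 7, 0.105 without donor 10 and 0.151 without donors 9 and 10 in edgeR. Donors 5 and 7 hold the lowest hippocampal libraries, 8.73 CPM for the pre-KD cohort of donor 5 and 14.5 CPM for the post-KD cohort of donor 7. Within pre-KD cohorts alone the log2 fold change was -0.62 (p = 0.0410, adjusted p = 0.683, edgeR), and within post-KD cohorts alone -0.82 (p = 0.00197, adjusted p = 0.105, edgeR). Of 10 microglial markers 4 had higher and 6 lower fitted values in the hippocampus, among the latter *C1qa* (22.4 against 30.9 CPM, p = 0.0379, adjusted p = 0.409, edgeR), and 0 of the list passed. All 10 endothelial markers had lower means in the hippocampus, 4 of them at an unadjusted p under 0.05 and 0 past adjustment. All 4 red blood cell markers tested had lower means in the hippocampus, 3 of them with an unadjusted p under 0.05 and 0 past the adjusted threshold. The summed level of the red blood cell list was 420 to 1243 CPM in the hippocampus and 390 to 1390 CPM in the frontal cortex, that of the microglial list 137 to 329 CPM and 165 to 292 CPM. Of 10 neuronal markers 7 had lower fitted values in the hippocampus, with *Rbfox3*, *Gad1* and *Gad2* past adjustment. Of 10 astrocyte markers 7 had higher fitted values, among them *Aqp4* (64.0 against 41.1 CPM, p = 0.00490, adjusted p = 0.126, edgeR), while *S100b* was the 1 to pass and was lower. Of 10 meningeal and fibroblast markers 5 had higher and 5 lower fitted values, with *Dcn* and *Igf2* significantly higher in the hippocampus, and 0 of 10 oligodendrocyte markers passed adjustment in edgeR. The part of these cells, and of the striatal and choroid plexus transcripts given above, in the *Gpx1* difference was not tested.

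**Figure D4:**
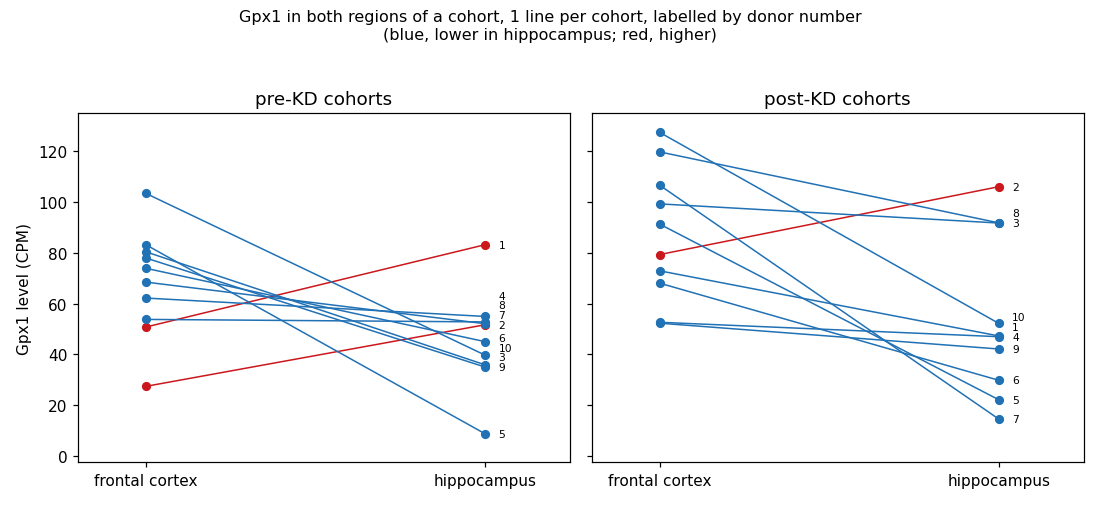
*Gpx1* level in CPM (vertical axis) in the frontal cortical and the hippocampal library of each cohort, for pre-KD cohorts (left) and post-KD cohorts (right), 1 line per cohort with the donor number at its right end. The line falls toward the hippocampus in 17 of 20 cohorts, from a median of 75.9 CPM to 47.1 CPM.

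*Slc7a11*, the light chain of the cystine-glutamate exchanger, had the opposite sign but passed adjustment in DESeq2 only. Hippocampal libraries ranged from 6.35 to 59.9 CPM (median 27.5) and frontal cortical libraries from 3.77 to 49.96 CPM (median 15.2), and the hippocampal library was the higher in 15 of 20 cohorts. The log2 fold change of 0.82 (SE = 0.37) had an unadjusted p of 0.0288, under the 0.05 that 10.9% of genes reached, and did not pass adjustment (adjusted p = 0.362, edgeR), whereas DESeq2 gave an adjusted p of 0.0369. Its heavy chain *Slc3a2*, which also serves other amino acid carriers, was significantly higher in the hippocampus, at 116 ± 43.9 against 71.2 ± 16.4 CPM (SD, n = 20 each) and in 18 of 20 cohorts (log2 fold change 0.64, SE = 0.16, adjusted p = 0.00318, edgeR). The remaining 8 members did not pass. Their log2 fold changes ran from -0.76 for *Gpx3* and *Gsr* to 1.30 for *Gss*, which was -0.89 in post-KD cohorts alone, with *Gclm* at -0.42 (SE = 0.26, p = 0.103, edgeR) and *Gclc* at -0.06.

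Whether the change post-KD differed between the regions was tested as an interaction within cohorts. Of the 10 members, 0 reached an unadjusted p under 0.05 in edgeR, where 2.22% of 19422 genes did. *Gss* came closest, with a difference of -3.71 between the log2 fold changes of the hippocampus and the frontal cortex and an interval from -7.92 to 0.51 (SE = 2.15, p = 0.0846, adjusted p = 1, edgeR). For *Gpx3* the difference was -0.39 with an interval from -2.78 to 1.99 (SE = 1.22, p = 0.746, edgeR), so that its frontal cortical value was not shown to be particular to that region.

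Correlations among the members were mostly weak, with 1 of 45 pairs at an absolute r of at least 0.4. Read depth limits r for the members averaging under 20 reads. After removing the mean of each group, Pearson's r of log2 CPM over 40 libraries had a median of -0.02 over the 45 pairs of members and 19 pairs were above 0. The highest r was 0.39, for *Oplah* with *Gpx3*, and the lowest was -0.52, for *Gclc* with *Slc7a11*. The subunits of glutamate-cysteine ligase, *Gclc* and *Gclm*, had an r of 0.21. Among 8156 genes averaging at least 20 reads, those most like a member over the 40 libraries were *Lbh* for *Gclc* (r = 0.59), *AI480526* for *Gclm* (r = 0.56), *Btrc* for *Slc7a11* (r = 0.65) and *Sv2b* for *Gpx1* (r = 0.67). These libraries share depth and dissection, and each is the highest of many values, so the coefficients describe the libraries only.

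The genes around the pathway are given by lists. These held 24 other glutathione enzymes, 11 genes of cysteine supply, 14 of NADPH supply, 12 of selenoprotein synthesis, on which *Gpx1*, *Gpx3* and *Gpx4* depend for their selenocysteine, and 9 of NRF2 control. In the hippocampus post-KD, 4 of 67 genes tested reached an unadjusted p under 0.05, 1 higher and 3 lower, a smaller share than the 10.1% of all genes, and 0 passed adjustment in edgeR. In the frontal cortex it was 0 of 66 in edgeR, against 9.68% of all genes. The median log2 fold changes of the lists lay between -0.20 (NRF2 control) and 0.31 (cysteine supply) in the hippocampus and between -0.31 (cysteine supply) and 0.28 (NADPH supply) in the frontal cortex.

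The 4 hippocampal genes were *Chac1*, *Pgls*, *Dpep2* and *Lrp2*. *Chac1*, which degrades glutathione and is a target of the stress factor ATF4, stood at 4.15 ± 4.94 CPM pre-KD against 0.325 ± 0.822 CPM post-KD (SD, n = 10 each) on 70 reads in 20 libraries, was lower post-KD in 6 of 10 donors and higher in 1 (log2 fold change -3.37, SE = 1.49, p = 0.0257, adjusted p = 0.325, edgeR). *Pgls*, an enzyme of the pentose phosphate pathway that supplies NADPH to *Gsr*, averaged 35.2 ± 21.9 and 16.2 ± 11.2 CPM and was lower post-KD in 8 of 10 donors (log2 fold change -1.13, SE = 0.50, p = 0.0261, adjusted p = 0.328, edgeR). *Dpep2* had 12 hippocampal reads, all pre-KD and from 2 libraries, and *Lrp2*, an uptake receptor for the selenium carrier SELENOP, had 14 hippocampal reads. The group means of both genes lie under the level that a count of 0 allows in a single library, so no fold is given. Single libraries can lie above that level. In edgeR the p of *Dpep2* was 0.00411 (adjusted p = 0.0785) and that of *Lrp2* 0.0337 (adjusted p = 0.390). *Gpx2*, a peroxidase best known from the gut that the study had picked on these same samples, stood at 1.15 ± 0.75 CPM pre-KD against 5.35 ± 7.06 CPM post-KD in the hippocampus (log2 fold change 2.14, SE = 1.32, p = 0.107, adjusted p = 0.743, edgeR) on 102 hippocampal reads. The post-KD mean of *Chac1* and the pre-KD mean of *Gpx2* also lie under the level that a count of 0 allows in a single library, so the sizes of these folds are uncertain.

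The NRF2 gene itself, *Nfe2l2*, averaged 22.5 ± 10.1 and 19.7 ± 11.99 CPM in pre-KD and post-KD hippocampus and 24.2 ± 13.9 and 33.4 ± 23.4 CPM in frontal cortex (SD, n = 10 each), with p values of 0.723 and 0.236 in edgeR. Its inhibitor *Keap1* stood near 105 CPM in both hippocampal groups. Between regions, *Slc3a2* and *Pgls* were the 2 of 68 genes of these lists to pass adjustment, a share near the 2.85% of all genes. *Pgls* was lower in the hippocampus at 25.7 ± 19.6 against 41.5 ± 15.7 CPM (SD, n = 20 each; log2 fold change -0.99, SE = 0.30, adjusted p = 0.0413, edgeR) and in 15 of 20 cohorts.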

How the data were processed

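Per the labels, the study's methods and the file contents, the authors trimmed and aligned paired reads of 69 bases to mm10 with STAR 2.5.2a, counted them per Ensembl gene with HTSeq 0.6.0, and deposited raw counts for 47643 genes in 1 table per region, which the authors themselves tested with DESeq2. Annotation release and strand setting are not given in the sources used here. Symbols were found for 47224 gene IDs and not for 419. Of the 45 pairs of libraries within a group, 0 were identical.

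Counts were tested as deposited with edgeR 4.0.16 (R 4.3.3, quasi-likelihood, TMM, at least 10 reads over a fit) and adjusted by Benjamini-Hochberg over all genes, with limma 3.58.1 and DESeq2 1.42.0 as alternatives. Intervals are 95%. Conditions were compared within each region over 10 donors, unpaired and without a donor term in the main test. Regions were compared with a term for each cohort. The scripts were tested on simulated data. Printed CPM are scaled over all 40 libraries. Low counts limit precision for most members, and counting intervals cover counting error only. Sequence similarity was searched with blastn 2.17.0, and gene positions are from GENCODE on GRCm38.

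Donors pair the cohorts by design, but the correlation of deviations from the group mean between the libraries of a donor ran from -0.0298 to 0.0274 in the hippocampus and from -0.0467 to 0.0322 in the frontal cortex over 8157 genes, with 0 of 10 above 0.1 in each. Between regions of a cohort it ran from -0.0231 to 0.202, with 1 of 20 above 0.1.

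All members were tested in every comparison and named in those within a region, while the comparison of regions and the interaction name some of them. *Gpx2* is given for the hippocampus only. Other pathway genes were named where they reached an unadjusted p under 0.05 between conditions or, for the 5 with the largest fold change at most, passed adjustment between regions. The gene most like a member was named for members averaging at least 20 reads. Cell type and region markers were described as lists. Values of some markers are not reported here. Any other gene named was picked with its values in view. The members and all lists were chosen with earlier results of these data known. The alternative without donors 9 and 10 was added after seeing the data.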

Additional observations from a re-analysis of the deposited data

Results flagged for a closer look

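Of 40 groups of 10 libraries (10 genes in 4 groups), 7 held a library farther from its nearest neighbor than Dixon's 95% limit allows. For normally distributed values, chance flags about 1 in 20 groups. These values are CPM without a log, often from few reads, so that rate need not hold here. All 7 flagged values were the highest of their group. Donor 3 accounted for 3 of these in post-KD libraries, with *Gclc* at 75.5 CPM in the frontal cortex (next library 36.8 CPM), *Gclm* at 91.7 CPM in the hippocampus (next 51.7 CPM) and *Ggt7* at 24.2 CPM in the hippocampus (next 12.7 CPM). Pre-KD libraries of donor 5 held *Gss* at 10.46 CPM in the frontal cortex (next 3.77 CPM) and *Gpx4* at 26.9 CPM in the hippocampus (next 12.7 CPM). *Slc7a11* stood at 49.96 CPM in the pre-KD frontal cortex of donor 9 (next 25.6 CPM), and *Gpx4* at 40.6 CPM in the post-KD hippocampus of donor 7 (next 23.4 CPM).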

How the results depend on the processing

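Counts of genes called moved with the processing. The filters leave different numbers of genes to test, so these are counts and not shares of the genes tested. At an unadjusted p under 0.05, against 1762 hippocampal and 1731 frontal cortical genes, DESeq2 gave 599 and 825, edgeR's filterByExpr 221 and 407, no filter 2931 and 3035, a replicate block for the donor 348 and 548 in edgeR and 931 and 1096 in DESeq2, and limma-voom with quality weights 962 and 1071. After adjustment, against 1 gene in each region, the hippocampus gave 0 with DESeq2, with filterByExpr and with the block in either tool, 1291 without a filter, and 0 to 1 with a donor left out. The frontal cortex gave 2 with DESeq2, 3 with the block in edgeR, 12 with the block in DESeq2 and 3 with limma-voom.

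At an unadjusted p under 0.05, the block in DESeq2 gave 1 member in the hippocampus (*Gss*) against 0, and limma-voom gave 2 in the frontal cortex against 1, where leaving out a donor gave 0 to 1. After adjustment 0 members passed in either region under any alternative. Member calls in these fits are not set beside a share of all genes and describe the processing only. Between regions, against 1 member and 554 genes past adjustment, DESeq2 gave 2 members and 1033 genes, no replicate block 1935 genes, pre-KD cohorts only 0 members and 193 genes, post-KD cohorts only 0 members and 251 genes, donors 9 and 10 left out 0 members, and 1 donor left out 0 to 1 members. For the interaction of region and condition at an unadjusted p under 0.05, against 0 members and 431 genes, DESeq2 gave 1 and 949, no replicate block 1767 genes, and a donor left out 0 to 1 members.

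These log2 fold changes, none of them past a threshold, turned sign. In the hippocampus *Gsr* was -0.26 with limma-voom and *Ggt7* 0.11 without donors 9 and 10. In the frontal cortex *Gsr* was 0.010 with limma-voom, *Oplah* was 0.19 and 0.14 with the block (edgeR, DESeq2) and 0.30 with limma-voom, and without donors 9 and 10 *Gclm* was -0.012, *Gsr* 0.26 and *Ggt7* -0.078. Between regions *Gss* was -0.89 in post-KD cohorts, and *Ggt7* 0.029 without the block and 0.057 in pre-KD cohorts. With 1 donor left out the hippocampal values of *Slc7a11* ran from -0.031 to 0.34, *Gsr* from -0.14 to 0.38, *Ggt7* from -0.57 to 0.19 and *Oplah* from -0.62 to 0.063, the frontal cortical values of *Gclc* from -0.076 to 0.39, *Gclm* from -0.030 to 0.19, *Gsr* from -0.46 to 0.12 and *Ggt7* from -0.35 to 0.40, and *Gclc* between regions from -0.18 to 0.035. The cause was not tested.

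The block in edgeR changed no member's call. *Gss* and *Ggt7* did not pass filterByExpr within a region and have no value there. Read depth limits *Gss*, *Ggt7*, *Oplah*, *Gsr*, *Gpx3* and *Gpx4*, which averaged under 20 reads per library.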
